A study of Mus musculus with 6 samples.

Results

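The genes described here are 10 paternally expressed imprinted genes outside the Dlk1-Meg3 cluster, taken by symbol from a table of 25170 gene symbols: Mest, Peg10, Igf2, Zrsr1, Ndn, Nnat, Plagl1, Peg3, Impact and Snrpn. The set was selected on measured values: its FPKM in knockout and wild type cells, and after LIF removal and with LIF, were known when it was drawn up. For these genes, differences between knockout and wild type cells and those on LIF removal are therefore given as a description, with no p-value. The number called by the fit over all genes is printed beside the share of all tested genes, and nothing is read from it. The lists of other genes were also chosen with earlier results of these data known, so their p-values are no independent evidence. All 10 symbols were in the table, and all 10 passed the filter of a mean of at least 1 FPKM (fragments per kilobase of transcript, scaled to the mapped fragments of the library) that left 11785 genes.

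RNA-seq covered 6 libraries of E14 cells, an established line of mouse embryonic stem cells (ESCs). The Hnrnpf KO cells, also E14, gave 2 libraries numbered 1 and 2 after LIF removal for 4 days and 2 libraries with the same numbers in medium with leukemia inhibitory factor (LIF), which keeps mouse ESCs self-renewing. The wild type (WT) E14 cells gave 1 library after LIF removal for 4 days and 1 library with LIF. All cells had been grown in serum medium. The study asked how loss of Hnrnpf, which encodes an RNA-binding protein, alters expression in pluripotent and in differentiating cells. Which part of Hnrnpf was deleted is not labelled. Nor is it labelled whether the numbers 1 and 2 are clones kept across media, or whether libraries came from separate cultures, so the p-values cover only library-to-library spread, possibly technical. WT values have no replicate error. Hnrnpf itself lay between 27.8 and 98.7 FPKM in the 4 KO libraries, against 335 and 342 FPKM in the WT libraries, and was lower in the KO libraries numbered 2. Summed over genes, FPKM came to 456155 to 556318 per library, and read counts were not used, so no counting error is given.

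The genes lie on 6 chromosomes (mm10, positions from the GENCODE vM21 annotation of GRCm38). Mest is at chromosome 6, 30723547 to 30748465, and Peg10 is on the same chromosome at 4747306 to 4760517. Peg3 (6703892 to 6730431), Snrpn (59982495 to 60140219), Ndn (62346569 to 62350262) and Igf2 (142650766 to 142666816) are on chromosome 7. Nnat is at chromosome 2, 157560078 to 157562522, Plagl1 at chromosome 10, 13060504 to 13131694, Zrsr1 at chromosome 11, 22972005 to 22976496, and Impact at chromosome 18, 12955852 to 12992950. Nnat lies inside an intron of Blcap, and Zrsr1 lies inside Commd1 on the opposite strand with some annotated exon overlap.

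Imprinted genes are expressed mainly from a single parental allele, and for the genes described here that is the allele inherited from the father. The choice is set by DNA methylation laid down in the germ line at control regions and kept after fertilization by proteins such as ZFP57, a zinc finger protein that binds the methylated hexamer TGCCGC. Many of these genes act in growth of the fetus and placenta, in neurons or in energy use, and in stem cells they are commonly read as a measure of imprinting. The FPKM values sum both alleles, so they do not show which allele a transcript came from.

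Promoter windows of RefSeq genes (GRCm38.p6, 250 bases before to 50 after a start) were taken by symbol. The 16 windows used here belong to 8 of the 10 genes. No window of Peg10 or Impact was used, so the counts below do not cover Peg10 and Impact. The ZFP57 hexamer TGCCGC or its reverse complement GCGGCA, searched on both strands, was in 6 of the 16 windows, those of Mest, Nnat, Plagl1, Igf2 and Snrpn. Of all 32851 windows, 11.6% hold it. The 6 windows include 2 overlapping ones of Mest, which hold the same hexamers. By gene, the hexamer was in 5 of the 8 genes with a window used, where 13.1% of all genes with windows hold it. Genes differ in their number of windows, and nothing is read from these counts. A match is a description of the letters, since the binding also needs a methylated CpG that was not measured here. The 4 windows shown are those of the genes with the highest ratios of KO to WT cells, in the window that holds the hexamer, each 5′ to 3′ on the gene's strand with the hexamer in capitals.
Mest, chr6:30737800-30738099, plus strand: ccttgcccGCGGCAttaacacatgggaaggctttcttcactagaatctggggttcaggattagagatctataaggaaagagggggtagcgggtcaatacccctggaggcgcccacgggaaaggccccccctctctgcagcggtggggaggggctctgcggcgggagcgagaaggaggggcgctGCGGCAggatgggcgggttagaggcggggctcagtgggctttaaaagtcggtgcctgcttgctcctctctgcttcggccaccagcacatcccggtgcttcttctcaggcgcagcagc
Plagl1, chr10:13090582-13090881, plus strand: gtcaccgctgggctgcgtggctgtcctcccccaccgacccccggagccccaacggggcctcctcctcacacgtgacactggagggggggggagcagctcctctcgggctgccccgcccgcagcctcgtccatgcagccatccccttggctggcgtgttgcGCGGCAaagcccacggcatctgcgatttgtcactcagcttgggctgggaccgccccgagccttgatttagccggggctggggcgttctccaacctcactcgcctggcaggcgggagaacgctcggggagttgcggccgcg
Nnat, chr2:157559828-157560127, plus strand: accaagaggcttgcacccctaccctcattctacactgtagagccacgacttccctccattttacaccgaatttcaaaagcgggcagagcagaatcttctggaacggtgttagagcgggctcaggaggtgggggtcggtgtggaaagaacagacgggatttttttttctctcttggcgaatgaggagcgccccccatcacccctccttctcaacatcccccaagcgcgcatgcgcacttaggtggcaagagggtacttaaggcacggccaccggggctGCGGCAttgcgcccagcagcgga
Igf2, chr7:142661222-142661521, minus strand: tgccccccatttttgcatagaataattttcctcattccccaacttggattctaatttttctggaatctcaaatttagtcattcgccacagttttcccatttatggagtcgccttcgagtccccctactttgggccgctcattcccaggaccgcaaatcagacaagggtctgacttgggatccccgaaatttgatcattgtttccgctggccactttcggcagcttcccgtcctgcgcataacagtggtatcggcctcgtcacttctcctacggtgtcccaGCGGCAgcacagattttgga
The Mest window holds the hexamer in 2 places. Over all 16 windows of these genes the number of CpG dinucleotides ran from 2 in windows of Igf2 and Snrpn to 26 in the Plagl1 window, and 10 of the 16 were above 7, the median of all windows, as were 48.6% of all windows. The windows printed were picked for the hexamer, which itself contains a CpG, so their CpG content is not compared. The table gives Mest 2 further windows, 1 of which overlaps the window shown, and gives Igf2 several starts. The FPKM table has a single value per gene and does not separate the starts.

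Most of these genes stood higher in KO than in WT cells, with Mest by far the furthest apart. In 7 of the 10 (Mest, Peg10, Igf2, Zrsr1, Ndn, Nnat and Plagl1) both KO libraries lay above the WT library in each medium, a pattern shown by 21.6% of all tested genes. In only Mest and Zrsr1 did all 4 KO libraries lie above both WT libraries (11.9% of all tested genes), and no member had all 4 below (13.0% of all tested genes). The count of members with all KO libraries above the WT libraries was 5 without the KO 1 library with LIF, and 7 without the WT library after LIF removal. Leaving a library out makes this pattern easier to meet for any gene. The share of all tested genes is not given for these smaller sets, so nothing is read from these counts. In limma's fit over both media 5 of the 10 were called higher and none lower, where 5.79% of all tested genes were called higher and 4.67% lower, a contrast that was known when the genes were chosen. When either of the WT libraries was left out, which leaves both genotypes in a single medium, the number called was 1, Mest.

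**Figure D1:**
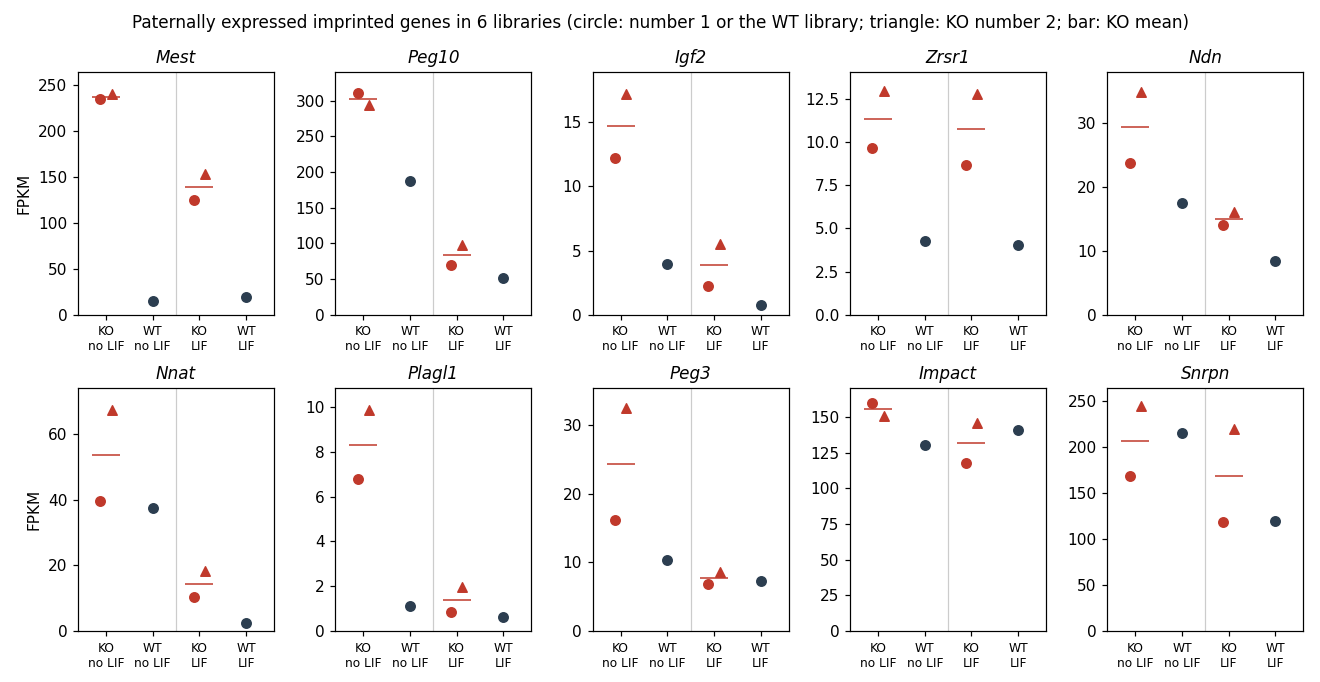
FPKM (linear axes from 0) of each of the 10 genes in the KO libraries (red) and WT libraries (dark blue) after 4 days without LIF and with LIF. The circle is KO number 1 or the WT library, the triangle KO number 2 and the bar the KO mean. Mest separates KO from WT cells in both media, while Peg10 and Ndn are higher without LIF in both genotypes and Impact varies little.

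Mest encodes a membrane protein of the alpha/beta hydrolase family and is named for its expression in mesoderm. It stood at 235 and 241 FPKM in KO 1 and KO 2 after LIF removal, against 15.2 FPKM in WT cells. With LIF it stood at 125 and 153 FPKM in the KO libraries, against 19.4 FPKM in WT cells. The KO mean was thus 238 ± 4.22 FPKM (SD, n = 2) after LIF removal, 15.6 times the WT value, and 139 ± 19.9 FPKM (SD, n = 2) with LIF, 7.16 times the WT value. The gap to WT cells exceeded the spread between the KO libraries in each medium. In rank, Mest lay above 97.7% and 97.8% of tested genes in KO 1 and KO 2 after LIF removal and above 55.2% in WT cells. With LIF it lay above 94.3% and 95.6% in the KO libraries and above 60.4% in WT cells. As these are bulk samples, a change in the number of expressing cells and a change in RNA per cell cannot be told apart.

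The 3′ end of Mest overlaps Copg2, a coat protein gene on the opposite strand, and 21.2% of the distinct 50-base stretches of Mest transcripts also occur in Copg2 transcripts on either strand. Copg2 stood at 26.5 and 17.4 FPKM in KO cells after LIF removal, against 22.9 FPKM in WT cells, and at 31.2 and 23.1 FPKM in KO cells with LIF, against 34.7 FPKM in WT cells. Copg2 gave a KO minus WT difference of -0.22 (log2, SE 0.19) and did not pass the test (limma adjusted p = 0.504). Cep41, a further neighbour, lay between 4.15 and 6.34 FPKM in all libraries. Mir335, whose hairpin lies in a Mest intron, is listed at 0 in every library, and Klf14, the maternally expressed neighbour, reached at most 0.43 FPKM.

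Igf2, Plagl1 and Peg3 are the growth factor and the zinc finger genes of the group. Igf2 encodes insulin-like growth factor 2, a fetal growth factor. It stood at 12.2 and 17.2 FPKM in KO 1 and KO 2 after LIF removal, against 3.95 FPKM in WT cells. In LIF medium it was at 2.22 and 5.55 FPKM in the KO libraries, against 0.76 FPKM in WT cells. The KO means were 3.73 and 5.11 times the WT values, and the KO library nearest to WT cells was 2.92 times the WT value. Of the distinct 50-base stretches of Igf2 transcripts, 62.1% also occur in another annotated gene, nearly all in Gm49394, a readthrough model on the same strand that is not a row of the table. Igf2os, an antisense RNA that overlaps Igf2, was at most 0.295 FPKM.

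Plagl1 encodes a zinc finger transcription factor that regulates other imprinted genes in mouse. It stood at 6.78 and 9.86 FPKM in KO 1 and KO 2 after LIF removal, against 1.10 FPKM in WT cells, a ratio of 7.53 for the KO mean. With LIF it was low throughout, at 0.85 and 1.96 FPKM in the KO libraries, against 0.618 FPKM in WT cells. The KO and WT values lay far apart after LIF removal, where the KO mean was 8.32 ± 2.18 FPKM (SD, n = 2). With LIF the gap was about as large as the SD of the KO libraries, whose mean was 1.40 ± 0.782 FPKM (SD, n = 2).

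Peg3 encodes a zinc finger protein linked to growth and maternal behaviour in mice. It stood at 16.1 and 32.4 FPKM in KO 1 and KO 2 after LIF removal, against 10.4 FPKM in WT cells. With LIF present it was at 6.85 and 8.60 FPKM in the KO libraries, against 7.36 FPKM in WT cells. The WT value lay between the KO values with LIF and below both after LIF removal. Peg3os, an antisense RNA of the Peg3 domain, stood at 20.9 and 22.3 FPKM in KO cells after LIF removal, against 7.52 FPKM in WT cells, and at 6.07 and 11.98 FPKM in KO cells with LIF, against 6.30 FPKM in WT cells. Whether counting used strand is not given in the sources used here, so reads of an antisense pair cannot be told apart.

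Peg10, Nnat and Ndn have roles in placenta and neurons. Peg10 is derived from a retrotransposon and is needed for the placenta in mouse. It stood at 311 and 294 FPKM in KO 1 and KO 2 after LIF removal, against 188 FPKM in WT cells. With LIF it stood at 70.3 and 98.1 FPKM in the KO libraries, against 52.2 FPKM in WT cells. The KO mean was 1.61 times the WT value in each medium. Peg10 was above 98.5% and 98.3% of tested genes in KO 1 and KO 2 after LIF removal, the highest ranks of the group. Sgce, which shares a divergent promoter with Peg10 and is also paternally expressed, stood at 15.9 and 14.5 FPKM in KO cells after LIF removal, against 8.23 FPKM in WT cells. In medium with LIF it was at 8.70 and 6.01 FPKM in KO cells, against 5.11 FPKM in WT cells.

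Nnat encodes neuronatin, a small membrane protein of the endoplasmic reticulum. It stood at 39.7 and 67.1 FPKM in KO 1 and KO 2 after LIF removal, against 37.3 FPKM in WT cells. Cells kept in LIF had 10.3 and 18.3 FPKM in the KO libraries, against 2.39 FPKM in WT cells. The KO mean was 5.996 times the WT value with LIF and 1.43 times after LIF removal, where KO 1 was close to WT cells. Blcap, whose intron holds Nnat, lay between 18.0 and 21.4 FPKM in all 6 libraries.

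Ndn encodes necdin, a protein of the MAGE family found in neurons. It stood at 23.8 and 34.8 FPKM in KO 1 and KO 2 after LIF removal, against 17.4 FPKM in WT cells. With LIF it stood at 13.97 and 16.1 FPKM in the KO libraries, against 8.48 FPKM in WT cells. Of its paternally expressed neighbours, Magel2 stood at 6.65 and 13.1 FPKM in KO cells after LIF removal, against 7.18 FPKM in WT cells, and at 0.702 and 4.57 FPKM in KO cells with LIF, against 0.409 FPKM in WT cells. Mkrn3, a further paternally expressed neighbour, lay between 3.67 and 4.84 FPKM in all libraries.

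Zrsr1, Snrpn and Impact act in RNA processing and translation. Zrsr1 encodes a protein related to the small subunit of the splicing factor U2AF. It stood at 9.67 and 12.9 FPKM in KO 1 and KO 2 after LIF removal, against 4.26 FPKM in WT cells. In LIF medium it was at 8.65 and 12.8 FPKM in the KO libraries, against 4.05 FPKM in WT cells. The 2 groups do not overlap over the 6 libraries. Zrsr1 is on chromosome 11, where the other tested genes were also higher in these KO libraries, with a median difference of 0.46 over both media against 1.20 for Zrsr1 (log2). Its host gene Commd1 stood at 147 and 130.2 FPKM in KO cells after LIF removal, against 94.4 FPKM in WT cells, and at 193 and 151 FPKM in KO cells with LIF, against 139.5 FPKM in WT cells. Transcripts of Commd1 hold 7.13% of the distinct 50-base stretches of Zrsr1. The part of the chromosome's shift in the Zrsr1 difference was not tested.

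Snrpn encodes SmN, a core protein of spliceosomal particles. It stood at 168 and 245 FPKM in KO 1 and KO 2 after LIF removal, against 215 FPKM in WT cells. With LIF present it was at 118 and 219 FPKM in the KO libraries, against 119.7 FPKM in WT cells. The WT value lay between the KO values after LIF removal and close to the lower KO value with LIF. Snurf, read from the same transcripts, has no row of its own in the table, and 26.5% of the distinct 50-base stretches of Snrpn also occur in transcripts of other annotated genes.

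Impact encodes an inhibitor of the kinase GCN2, which slows translation when amino acids are short. It stood at 160.1 and 151 FPKM in KO 1 and KO 2 after LIF removal, against 130.4 FPKM in WT cells. In medium with LIF it was at 118 and 146 FPKM in the KO libraries, against 141 FPKM in WT cells. Its values spanned 0.44 on the log2 scale over the 6 libraries, the narrowest range of the group, where Nnat spanned 4.33, Mest 3.90 and Igf2 3.37.

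For the other chromosomes the median KO minus WT difference of the other tested genes over both media was 0.13 on chromosome 6, -0.09 on chromosome 7, -0.06 on chromosome 2 and -0.09 on chromosome 10 (log2). The members' differences were 3.32 for Mest, 0.67 for Peg10, 1.52 for Igf2, 0.72 for Ndn, 1.29 for Nnat, 1.33 for Plagl1, 0.56 for Peg3 and 0.17 for Snrpn. On chromosome 18 the median was -0.08 and the difference of Impact 0.07. Tested genes within 2 Mb of Mest had a median difference of -0.07 and those within 2 Mb of Peg10 one of 0.06.

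**Figure D2:**
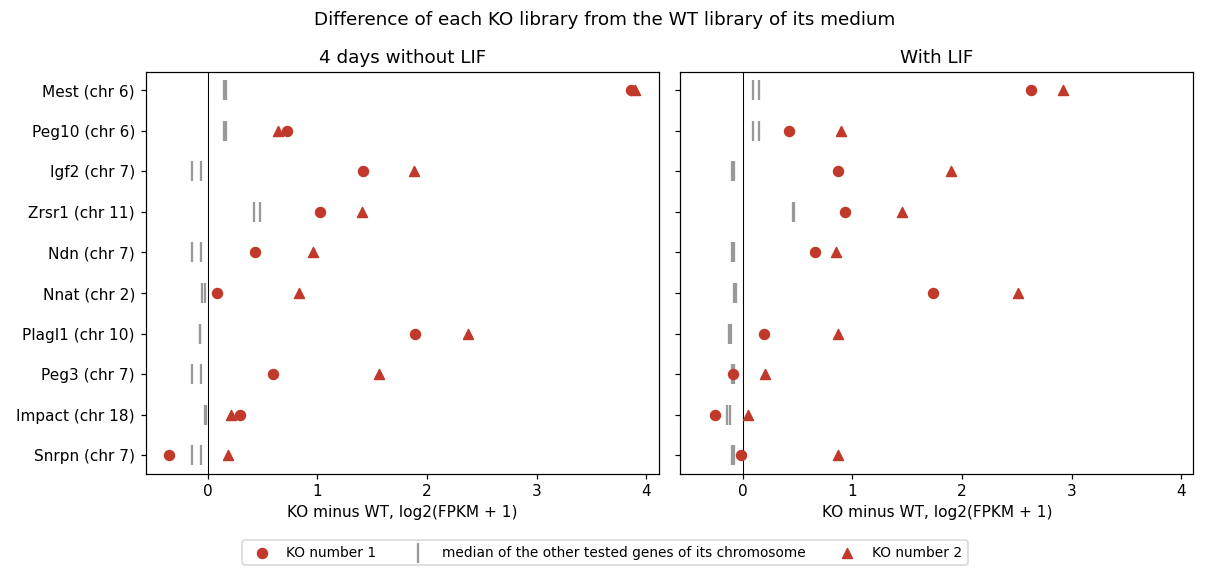
Difference of each KO library from the WT library of the same medium on the log2(FPKM + 1) scale (horizontal axis) for each gene (rows), after 4 days without LIF (left) and with LIF (right). Red circles are KO number 1, red triangles KO number 2, and grey ticks the median of the other tested genes of that chromosome for each KO library. Mest lies at 3.86 and 3.90 without LIF and at 2.63 and 2.92 with LIF, far from its chromosome's ticks, while the ticks of Zrsr1 stand at 0.43 to 0.48.

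After LIF removal, Nnat, Peg10 and Igf2 were the members furthest above their level with LIF, and Zrsr1 and Impact were the closest to it. Over both genotypes, with 3 libraries after removal and 3 with LIF, the differences on the log2 scale were 2.39 for Nnat (SE 0.37), 1.84 for Peg10 (SE 0.13) and 1.67 for Igf2 (SE 0.27). Those of the zinc finger genes were 1.44 for Plagl1 (SE 0.35) and 1.12 for Peg3 (SE 0.29), and that of Ndn was 0.92 (SE 0.16). Snrpn gave 0.50 (SE 0.24), Mest 0.41 (SE 0.21), Impact 0.13 (SE 0.12) and Zrsr1 0.07 (SE 0.18). The median of the 10 differences was 1.02, where that of all tested genes was -0.03. In limma's fit 6 of the 10 were called higher (Peg10, Nnat, Igf2, Ndn, Plagl1 and Peg3) and none lower, where 8.73% of all tested genes were called higher and 12.7% lower. These values were known when the genes were chosen, so the count is no evidence about the set.

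Peg10, Nnat and Igf2 were called whichever single library was left out, and the other calls depended on single libraries. Without the KO 1 library with LIF, Peg3 and Plagl1 were not called, and Peg3 was not called without the KO 2 library with LIF, where Snrpn was. Plagl1 was not called when either of the KO libraries after LIF removal was left out. When either of the WT libraries was left out, the contrast rests on KO cells alone, and Ndn was not called and Mest was. Peg3 and Plagl1 were also not called when genes of low FPKM were kept. In Peg10, Ndn, Nnat and Peg3 all 3 libraries after removal lay above all 3 with LIF, a pattern of 14.9% of tested genes. All members but Mest and Impact were higher after removal in WT cells, KO 1 and KO 2 alike, 8 of 10, as were 27.3% of tested genes.

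The response in WT cells compares 1 library with 1 and has no test. Nnat was 15.6 times as high after LIF removal as with LIF in WT cells, Igf2 5.19 times and Peg10 3.598 times. These 3 of the 10 genes passed a log2 difference of 1 in WT cells, as did 3.80% of all tested genes. In WT cells Ndn was 2.06 times as high after removal, Snrpn 1.80, Plagl1 1.79, Peg3 1.41, Zrsr1 1.053, Impact 0.927 and Mest 0.786 times.

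In KO cells alone, 2 libraries against 2, the differences after LIF removal were 1.97 for Plagl1 (SE 0.30), 1.85 for Peg10 (SE 0.17), 1.83 for Nnat (SE 0.33), 1.76 for Igf2 (SE 0.36) and 1.46 for Peg3 (SE 0.31). Ndn gave 0.90 (SE 0.21) and Mest 0.78 (SE 0.14). The fit called 6 of the 10 higher, these genes except Ndn, where 3.05% of tested genes were called higher and 3.88% lower, and the same selection applies to this count. Without the KO 1 library with LIF, or without the KO 2 library after LIF removal, Peg10 was the only member called. No member was called when genes of low FPKM were kept, and 3 were without limma's intensity trend.

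**Figure D3:**
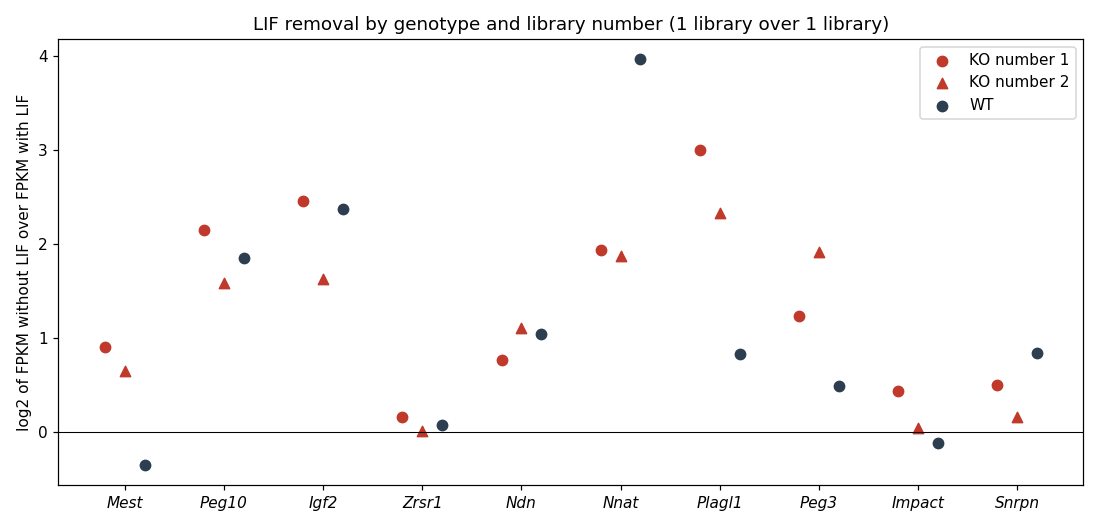
Ratio of FPKM without LIF to FPKM with LIF on a log2 axis for each gene, in KO number 1 (red circles), KO number 2 (red triangles) and WT cells (dark blue circles). Each point divides 1 library by 1 library, paired by number for KO cells, which the labels do not say marks the same clone. Nnat is highest in WT cells, Plagl1 and Peg3 are higher in KO than in WT cells, and Mest is below 0 in WT cells only.

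Whether the response to LIF removal differs between KO and WT cells was tested as an interaction, and no member passed it. The count over all genes was also 0 of 11785, or 0.00% of tested genes, and 3 members and 340 tested genes (2.89%) had an unadjusted p under 0.05. The values compared were known when the genes were chosen, so these counts are no evidence about the set. As KO minus WT response in log2 units, Mest gave 1.11 (SE 0.25, limma adjusted p = 1.0), Plagl1 1.60 (SE 0.53, adjusted p = 1.0) and Nnat -1.67 (SE 0.56, adjusted p = 1.0), and these are the 3. Peg3 gave 1.02 (SE 0.54, adjusted p = 1.0). The 6 others lay between -0.51 for Snrpn and 0.35 for Impact. The WT response rests on 1 library in each medium.

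The KO libraries numbered 2 stood above those numbered 1 for most members. In 8 of the 10 genes, all but Peg10 and Impact, KO 2 was above KO 1 in both media, as in 31.2% of all tested genes. The ratio of KO 2 to KO 1 was largest for Igf2 with LIF (2.50), Plagl1 with LIF (2.30) and Peg3 after LIF removal (2.01). For Snrpn it was 1.46 after LIF removal and 1.85 with LIF. Over both media no member passed the test of the difference between numbers, where 0.976% of all tested genes did. At an unadjusted p under 0.05 there were 5 members and 13.7% of tested genes. Snrpn came closest (0.71, SE 0.16, limma adjusted p = 0.0813), followed by Igf2 (0.74, SE 0.20, adjusted p = 0.140). Snrpn and Nnat were called when either of the WT libraries was left out, and Snrpn without the KO 2 library after LIF removal. The KO 2 minus KO 1 value of Hnrnpf was -1.57 (SE 0.13, limma adjusted p = 0.0111), and its part in these differences was not tested.

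H19, the maternally expressed non-coding RNA that shares enhancers with Igf2, was higher in the KO libraries numbered 2. It stood at 27.4 and 118 FPKM in KO 1 and KO 2 after LIF removal, against 20.4 FPKM in WT cells, and at 7.55 and 56.1 FPKM in KO 1 and KO 2 with LIF, against 3.97 FPKM in WT cells. The KO 2 minus KO 1 difference of H19 was 2.40 (SE 0.22, limma adjusted p = 0.0111).

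**Figure D4:**
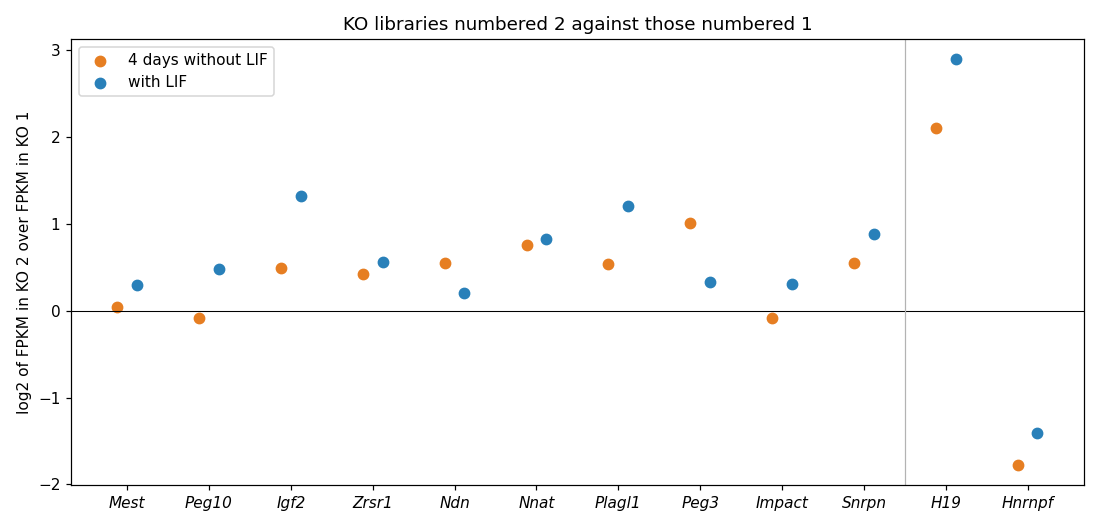
Ratio of FPKM in the KO library numbered 2 to that numbered 1 on a log2 axis, after 4 days without LIF (orange) and with LIF (blue), for the 10 genes and, right of the grey line, H19 and Hnrnpf. Each point divides 1 library by 1 library. H19 is highest and Hnrnpf lowest, and 8 of the 10 genes are above 0 in both media.

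The profiles of the members over the 6 libraries resembled each other to differing degrees. Pearson's r of log2(FPKM + 1) between members, as a description over 6 libraries that share 2 media and 2 genotypes, had a median of 0.72 over 45 pairs, was lowest for Snrpn and Mest (0.254) and highest for Ndn and Igf2 (0.971). The members were chosen with these values known, and the median for pairs of other genes was not computed. Nothing about the set is read from these correlations. Among all other tested genes, the profile most like that of Mest was that of Rian, with a root mean square difference of 0.15 on the centred log2 scale and r = 0.997 over 6 libraries. Meg3 (0.15, r = 0.999) and Mirg (0.33, r = 0.992) came next, and all 3 are maternally expressed non-coding RNAs of the Dlk1-Meg3 cluster on chromosome 12. Meg3 stood at 116 and 124 FPKM in KO cells after LIF removal, against 8.92 FPKM in WT cells, and at 67.7 and 88.1 FPKM in KO cells with LIF, against 12.9 FPKM in WT cells. The nearest profiles to Igf2 were Isg15 (0.17, r = 0.993), Gprc5c (0.21, r = 0.983) and Wnt8a (0.22, r = 0.983). Those nearest to Nnat were Gbp2 (0.33, r = 0.976), Sema6a (0.35, r = 0.970) and Pim2 (0.36, r = 0.978).

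Of 19 other paternally expressed imprinted genes listed, 16 were in the table and 9 were tested. This list and those below were chosen with earlier results of these data known. On LIF removal Sgce rose by 0.85 (SE 0.17, limma adjusted p = 0.0117) and Magel2 by 2.01 (SE 0.44, adjusted p = 0.0162), with none lower, where 8.73% of all tested genes were called higher, and the list median was 0.33. Between KO and WT cells Zdbf2 rose by 0.58 (SE 0.15, adjusted p = 0.0491), with none lower, where 5.79% of all tested genes were called higher. The list median was 0.50, where that of all tested genes was -0.03. Zdbf2 stood at 36.9 and 25.8 FPKM in KO cells after LIF removal, against 20.1 FPKM in WT cells, and at 22.3 and 22.6 FPKM in KO cells with LIF, against 14.7 FPKM in WT cells.

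A further list held 20 genes that act at imprints or in setting, keeping or removing DNA methylation, all tested. It includes the Tet genes, whose products act in removing methylation. Of the 20, 2 were called higher and 1 lower in KO than in WT cells. These counts are close to the 5.79% higher and 4.67% lower of all tested genes. Zfp57 rose by 0.93 (SE 0.19, limma adjusted p = 0.0238) and Dppa3, which protects the maternal genome and some imprints from demethylation in the zygote, by 1.10 (SE 0.17, adjusted p = 0.0111). Uhrf1, the cofactor of the maintenance methyltransferase, fell by 0.46 (SE 0.11, adjusted p = 0.0386). Zfp57 stood at 129 and 83.8 FPKM in KO cells after LIF removal, against 50.04 FPKM in WT cells, and at 183 and 251 FPKM in KO cells with LIF, against 120.1 FPKM in WT cells. On LIF removal 2 were called higher and 5 lower, where 8.73% of all tested genes were higher and 12.7% lower. Those higher were Dnmt3b (0.84, SE 0.24, limma adjusted p = 0.0416), a de novo methyltransferase, and Zfp445 (0.42, SE 0.13, adjusted p = 0.0474), a zinc finger protein that acts with ZFP57. Those lower were Daxx (-0.44, adjusted p = 0.0273), Zfp57 (-1.11, SE 0.18, adjusted p = 0.00604), Dppa3 (-0.93, adjusted p = 0.00646), Uhrf1 (-0.58, adjusted p = 0.00861) and Tet2 (-1.10, adjusted p = 0.0165).

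Of 16 further genes of the insulin-like growth factor pathway, 11 were tested. On LIF removal 4 were called higher and 1 lower, where 8.73% of all tested genes were higher and 12.7% lower. The insulin receptor substrates Irs2 (1.62, SE 0.21, limma adjusted p = 0.00286) and Irs1 (1.15, SE 0.21, adjusted p = 0.00826) rose, as did the binding protein Igfbp3 (1.92, SE 0.27, adjusted p = 0.00364). The receptor Igf1r also rose (0.77, SE 0.14, adjusted p = 0.00907), and Igf2bp2, an Igf2 mRNA-binding protein, fell by 0.70 (SE 0.13, adjusted p = 0.00845). Between KO and WT cells Igf2bp1 (0.56, adjusted p = 0.0272), Igfbp4 (1.08, adjusted p = 0.0388) and Igfbp3 (1.10, adjusted p = 0.0485) were higher and Igf2bp2 lower (-0.79, adjusted p = 0.0147), where 5.79% of all tested genes were higher and 4.67% lower. Unlike those of the members, these differences were not set against the medians of their chromosomes, which reached 0.46 on chromosome 11 (log2). The part of such a chromosome-wide shift in the genes called here was not tested, so these calls are not read as a result about the pathway. Igf2r, the clearance receptor for IGF2, lay between 11.7 and 18.3 FPKM in all libraries.

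The labelled cell type was checked against markers. The 7 pluripotency markers were all tested, none at 0, and summed to 3026.97 to 3706.92 FPKM in KO and 4108.4 FPKM in WT cells after LIF removal, and to 6655.8 to 6671.13 FPKM in KO and 9446.37 FPKM in WT cells with LIF. Dppa5a was the largest part of these sums, at 4062 and 4115 FPKM in KO and 6460 FPKM in WT cells with LIF. All 7 markers fell on LIF removal, and none was called between KO and WT cells (limma). The 8 fibroblast or feeder markers had 1 tested member and summed to 6.86 to 9.36 FPKM in KO and 7.02 FPKM in WT cells after LIF removal, and to 8.43 to 8.69 FPKM in KO and 3.63 FPKM in WT cells with LIF. Of these Postn and Lum were at 0 in at least 3 libraries. The 8 primitive endoderm markers, with Afp at 0 throughout, had 2 tested members and summed to 7.90 to 12.7 FPKM in KO and 5.41 FPKM in WT cells after LIF removal, and to 3.87 to 4.62 FPKM in KO and 2.06 FPKM in WT cells with LIF. The 7 mesoderm markers, 2 of them tested, summed to 12.3 to 25.7 FPKM in KO and 18.2 FPKM in WT cells after LIF removal, and to 6.14 to 7.74 FPKM in KO and 6.50 FPKM in WT cells with LIF. Of 7 trophoblast markers, 6 tested, the sums were 28.9 to 37.6 FPKM in KO and 18.5 FPKM in WT cells after LIF removal, and 22.7 to 33.6 FPKM in KO and 37.6 FPKM in WT cells with LIF. Of 7 neural markers, 6 tested, they were 73.4 to 76.4 FPKM in KO and 112 FPKM in WT cells after LIF removal, and 92.3 to 100.1 FPKM in KO and 96.5 FPKM in WT cells with LIF. Tubb3 was the largest part of the neural sums, at 48.4 and 47.5 FPKM in KO and 77.1 FPKM in WT cells after LIF removal. Tfap2c was the largest part of the trophoblast sums, at 16.9 and 21.0 FPKM in KO and 33.4 FPKM in WT cells with LIF. In that medium Cdx2, Hand1, Gata3 and Krt7 were higher in both KO libraries than in WT cells, and Ascl2 and Elf5 were not. Foxa2 of the endoderm list, Elf5 of the trophoblast list and Foxf1 of the mesoderm list were also at 0 in at least 3 libraries. On LIF removal limma called several of these markers higher, as it did 6 members: 2 of the 2 tested mesoderm markers (T, 2.23, adjusted p = 0.00793, and Eomes, 0.93, adjusted p = 0.0148), 3 of the 6 neural markers (Nes, 2.01, adjusted p = 0.00352, Neurod1, 0.80, adjusted p = 0.0367, and Map2, 0.66, adjusted p = 0.0381), 2 of the 6 trophoblast markers (Gata3, 1.16, adjusted p = 0.0117, and Hand1, 1.04, adjusted p = 0.0300) and 1 of the 2 primitive endoderm markers (Dab2, 1.57, adjusted p = 0.00693). Tubb3, a neural marker, was lower (-0.51, adjusted p = 0.0398). Between KO and WT cells Hand1 was called higher (1.11, adjusted p = 0.0466) and no other marker of these 6 lists was called. The difference of Hand1 was not set against the median of its chromosome. Such medians reached 0.46 on chromosome 11 (log2), and the part of such a shift in the Hand1 difference was not tested. The part of any of these cell types in the members' differences was not tested.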

How the data were processed

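RNA-seq of 6 mouse ESC libraries in 4 groups was used as 1 deposited table. The authors deposited FPKM, 1 value per gene symbol and library. STAR, Cufflinks and build mm10 are named, per the submitters' processing notes. The sources used here give no versions, parameters, annotation or strand. FPKM carries no read counts, so depth is unknown.

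FPKM were taken to log2(FPKM + 1) with no added scaling, and a gene was tested if its mean reached 1 FPKM. A fold change on this scale understates the change of low genes. Tests used limma 3.58.1 in R 4.3.3 (intensity trend, two-sided, Benjamini-Hochberg over 11785 genes, threshold 0.05). An additive fit of genotype and medium (3 residual degrees of freedom) gave effects over both, a 4-group fit (2 residual) the KO response and the interaction, and a fit with KO number the difference between numbers (2 residual). A lone WT library is assumed to vary like the KO libraries. The fits were run on simulated data with independent noise in each library. That does not cover noise shared by same-numbered KO libraries, and nothing is read from it here. The members and lists were chosen with earlier results of these data known. Every member was named. Other genes were named from the lists when past the threshold, as neighbours of a member, as markers or for a like profile. Hnrnpf and Igf2r were named outside this rule. Sharing of transcripts was computed with 50-base stretches of GENCODE vM21 transcripts. Alternatives were another pseudocount, filter, scaling and trend, each library left out, and the replicate number as a block.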

Additional observations from a re-analysis of the deposited data

Results flagged for a closer look

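Mest moved in opposite directions on LIF removal: both KO libraries after removal (235 and 241 FPKM) lay above both with LIF (125 and 153 FPKM), while the WT library was at 15.2 FPKM after removal and at 19.4 FPKM with LIF. The difference of responses, KO minus WT, was 1.11 in log2 units (SE 0.25, limma adjusted p = 1.0), so the test of that difference did not pass.

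Impact did the same on a smaller scale, at 160.1 and 151 FPKM in KO cells after removal and 118 and 146 FPKM with LIF, while the WT library was at 130.4 FPKM after removal and at 141 FPKM with LIF. Its difference of responses was 0.35 (SE 0.25, limma adjusted p = 1.0), which did not pass either.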

How the results depend on the processing

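The counts of members called under the alternatives were as follows, and the cause of a change was not tested. On LIF removal over both genotypes 6 members were called, and between 4 and 6 with each library left out in turn. In KO cells alone the count was 6, 3 without the intensity trend, 0 without a filter on low values, and between 1 and 6 with each library left out. Without the filter many more genes are tested and the prior spread changes. The difference of responses gave 0 under every alternative run. Without a WT library it has no value. Between KO numbers the count was 0, and between 0 and 2 with a library left out. Between KO and WT cells the count was 5, 1 without a filter, 3 without the trend, and between 1 and 6 with a library left out. Members whose groups do not overlap numbered 2, and between 2 and 7 with a library left out. The share of all tested genes under these alternatives is not given, so the counts are not compared with it.

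The labels do not say that a KO number marks a shared clone, and 2 pairs are too few to decide it. Same-numbered KO libraries deviated together (r = 0.366 over 11785 genes). With the replicate number as a block, 7 members were called on LIF removal over both genotypes (adding Snrpn) and 7 in KO cells (adding Ndn). Between KO and WT cells there is no block fit, since WT libraries carry no number.

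Values that changed sign were not called in the full set. With each library left out in turn, the LIF response of Zrsr1 ran from -0.0756 to 0.218 over both genotypes and from -0.177 to 0.337 in KO cells, and that of Snrpn in KO cells from -0.109 to 0.77. The difference of responses ran from -0.213 to 0.262 for Peg10, -0.247 to 0.779 for Igf2, -0.237 to 0.278 for Zrsr1 and -0.329 to 0.203 for Ndn, and that of Igf2 was -0.221 with a pseudocount of 0.1. The KO 2 minus KO 1 difference ran from -0.209 to 0.536 for Mest, -0.0196 to 0.411 for Peg10 and -0.125 to 0.345 for Impact. All are log2 values.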

Other observations

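Of 21 tested genes beside the members, 5 were called higher and 2 lower on LIF removal, where 8.73% of all tested genes were higher and 12.7% lower. Besides Sgce and Magel2, those higher were Pon2, Casd1 and Peg3os (0.90, limma adjusted p = 0.0494), and their neighbours Peg10, Ndn and Peg3 were also higher. Osbpl1a, next to Impact, fell by 0.92 in log2 units (SE 0.13, limma adjusted p = 0.00395), at 15.0 and 11.5 FPKM in KO cells and 18.0 FPKM in WT cells after removal, against 27.9 and 24.1 FPKM in KO cells and 34.6 FPKM in WT cells with LIF. Pon2 and Casd1, in the neighbourhood of Peg10, rose by 1.02 (SE 0.15, adjusted p = 0.00451) and 0.67 (SE 0.17, adjusted p = 0.0299). Phlda2, a maternally expressed growth inhibitor of the domain next to Igf2, fell by 0.92 (SE 0.26, adjusted p = 0.0417). It was also lower in KO 2 than in KO 1, by 0.81 (SE 0.15, adjusted p = 0.0494), where H19 was higher. Cdkn1c, a cell cycle inhibitor of that domain, was lower in KO than in WT cells (-1.60, SE 0.26, adjusted p = 0.0128), where Igf2 stood higher.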
